A study of Mus musculus with 6 samples.

Results

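The genes described here had coverage in mesenchymal M cells no higher than 1 part in 5 of that in both epithelial E cells and RE cells, the cells examined after TGFβ1 had been removed. The members were chosen on the measured values themselves. Each library was scaled to ppm (parts in 1e+06) of its total, and a gene was taken when its higher M value was no more than 1 part in 5 of the lowest of its 4 E and RE values and that lowest value was at least 1 ppm. This rule selected 185 of the 17428 genes in the table, or 1.64% of the 11276 genes with at least 1 ppm in every E and RE library. All libraries came from EpH4, 1 mouse mammary epithelial cell line, grown in DMEM/F12 medium with fetal bovine serum, penicillin-streptomycin and insulin. E cells were untreated, M cells had received TGFβ1 for 7 days, and RE cells had been kept for another 4 days after its withdrawal, with 2 biological replicate libraries per stage and 6 in all. RE cells were thus also longer in culture than M cells, and with no culture of matched age used here, withdrawal and time cannot be told apart.

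TGFβ1 is a secreted ligand that signals through serine/threonine kinase receptors and Smad transcription factors. In mammary epithelial cells it can drive epithelial-mesenchymal transition, in which cell junctions and apical-basal polarity are taken down and matrix and cytoskeletal genes are switched on. The reverse process, mesenchymal-epithelial transition, can follow when the ligand is withdrawn. Zinc-finger factors of the Zeb and Snail families repress epithelial genes during the transition by binding E-boxes, short DNA motifs that include CACCTG.

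The deposited values behaved as coverage, the sum of sequenced bases in each gene, and the libraries held 35782513 to 47928557 reads' worth of 50 bases. Levels are given as coverage in ppm after TMM normalization, and differences between E and RE cells as log2 fold changes from limma, positive where RE was higher. The epithelial genes *Cdh1*, *Krt8*, *Krt18*, *Cldn3*, *Cldn4* and *Cldn7* were covered in all 6 libraries, with *Cdh1* between 243 and 329 ppm. *Krt19* did not exceed 0.161 ppm. *Epcam*, also searched, had no entry under that symbol. The 7 epithelial markers found summed to 1540 to 1870 ppm in E, 1330 to 1350 in M and 853 to 896 in RE. *Krt8*, *Krt18* and *Cldn4* were lower in RE than in M, whereas *Cldn3* and *Cldn7* were higher in RE than in M. *Krt18*, the largest part of the sum in E and M, was at 879 and 616 ppm in E, 586 and 553 in M and 269 and 311 in RE. For the 8 mesenchymal markers, mostly *Fn1*, the sums were 2420 to 5370, 18300 to 18400 and 10700 to 11600 ppm, respectively. Those of the 4 fibroblast markers found, mostly *Col1a1*, were 51.1 to 51.6, 477 to 585 and 281 to 368 ppm. *Lum*, also searched, had no entry under that symbol. Unlike *Col1a1*, the markers *Pdgfra*, *Dcn* and *Col3a1* were highest in RE. *Pdgfra* was at 19.3 and 17.6 ppm in E, 29.8 and 33.4 in M and 91.7 and 75.9 in RE. The sums of the 6 basal or myoepithelial markers, mostly *Krt14*, were 309 to 374 ppm in E, 784 to 899 in M and 497 to 498 in RE. *Acta2* was also highest in M. *Trp63* was lowest in M and highest in RE, at 58.9 and 82.4 ppm in E, 44.5 and 55.2 in M and 172 and 158 in RE. The leukocyte genes *Ptprc* and *Cd3e* stayed at or below 0.079 ppm, but the 6 immune markers searched summed to 6.82 to 10.7 ppm in E, 33.0 to 37.2 in M and 7.45 to 7.59 in RE. Most of the M sum was *Csf1r*, the macrophage growth factor receptor, at 25.7 and 30.1 ppm in M and at most 2.07 in E and RE, while *Cd68*, a lysosomal glycoprotein abundant in macrophages, was at 5.14 to 9.25 ppm in all libraries. The 4 endothelial markers summed to at most 0.559 ppm in E and RE and to 2.70 and 2.75 in M. The part of these genes in the members' levels was not tested. In these bulk samples, fewer cells of a kind and less RNA per cell cannot be told apart.

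Among the 330 genes whose M values were at most 1 part in 5 of both E values, 185 (56.1%) were members. Another 28 (8.48%) were no members and lay at most at 1 part in 5 of E in both RE libraries too, and 117 (35.5%) were between. *Crb3* was the single member that also met the limit of 1 part in 5 of E in both RE libraries. The mirror rule, for genes at least 5-fold higher in M than in both other stages, took 113 genes. By construction all 185 members were called lower in E vs. M, where 8.35% of all genes tested were called lower, and all 185 were called higher in M vs. RE, where 7.92% were called higher.

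The median ratio of E to M coverage was 14.4, over a range from 4.82 to 808. The lowest E or RE value of a member, in ppm of the library total, had a median of 7.9 and ran from 1.06 to 277. Few members were lost entirely. In 22 members (11.9%) M coverage was at the floor, set at 150 bases (3 reads' worth), and 8 of these had no coverage in either M library. Those 8 were *Atp13a5*, *Sntg2*, *Inmt*, *Akr1c18*, *Tmprss4*, *Trex2*, 8430408G22Rik and *Cyp2f2*. The floor corresponded to 0.0632 to 0.0787 ppm, depending on the library, and covers counting error only. At the edge of the rule, the highest M value was 0.1973 of the lowest E or RE value for *Zfp36* and *Pof1b*, 0.199 for *Slc25a35* and 0.1999 for the clone-named AC124552.3. Just outside lay *Pm20d2* at 0.2002, C430004E15Rik at 0.2008, *Klk10* at 0.2014 and *Arrdc4* at 0.204.

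**Figure D1:**
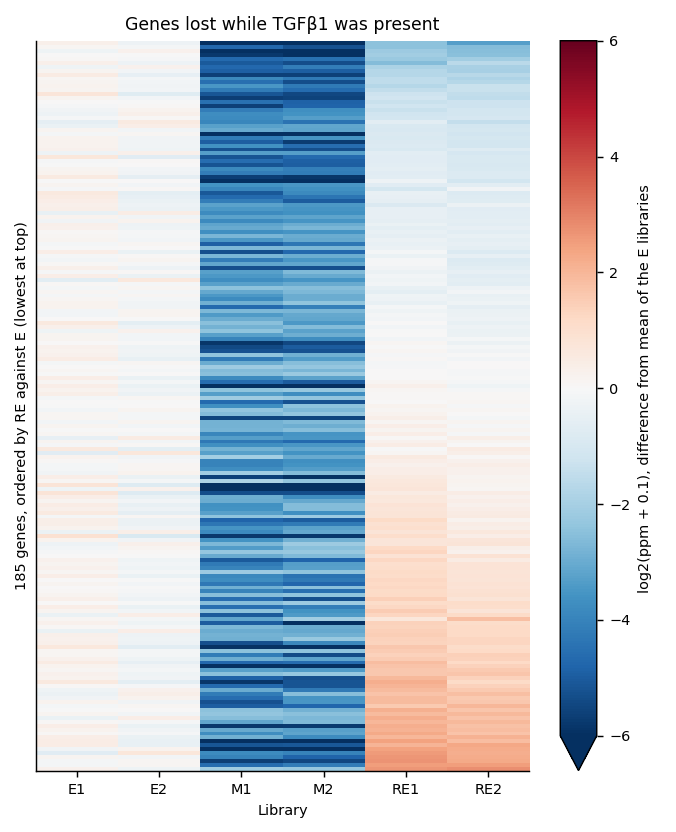
Heat map of the 185 members (rows) in the 6 libraries (columns), coloured by log2(ppm + 0.1) relative to the mean of the E libraries, with values under the lowest step of the scale drawn at that step. The M columns are low in every row because the rule required it, while the RE columns run from below to above E.

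Regulators of epithelial identity were represented by *Grhl1*, *Elf3* and *Klf4*, 3 of the 20 tested genes on the list of such factors. *Grhl1*, a grainyhead factor of surface epithelia, lay at 17.1 and 18.7 ppm in the E libraries, 1.29 and 1.49 in M and 24.04 and 18.0 in RE. *Elf3*, an epithelium-specific Ets factor, lay at 24.5 and 15.6 ppm in E, 2.69 and 3.17 in M and 17.6 and 16.1 in RE. *Klf4*, a zinc-finger factor of differentiating epithelium, was the most abundant of the group, at 115 and 144 ppm in E, 18.0 and 20.2 in M and 138 and 145 in RE. For *Grhl1*, *Elf3* and *Klf4* the ranges of the E and RE libraries overlapped, and none was called between E and RE. Of the 20 regulators tested, 4 were called higher and 0 lower in RE than in E, and their median log2 fold change was 0.39, against -0.00229 for all genes tested. The members also held *Zfp750*, a regulator of epidermal differentiation, and the grainyhead-related *Tcfcp2l1*.

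Promoter windows from 250 bases before to 50 bases after the annotated start were found in the RefSeq table (GRCm38.p6) for 127 members. CACCTG, read on either strand, occurred in those of 38 members (29.9%), against 21.4% of the 10299 tested genes with a window and 22.6% of all 27025 genes in the RefSeq table. The AP-1 motif TGANTCA on either strand occurred in 18 members (14.2%), against 6.82% of tested genes and 8.97% of all genes. The share with more than 1 window was 19.7% for members and 20.3% for tested genes. These shares are descriptions, and binding was not measured. A window with at least 4 copies of CACCTG was found in 6 tested genes (0.0583%), of which *Crb3* was the single member. The windows of *Crb3*, *Elf3* and *Edar* are shown for their E-boxes, and that of *Ankrd22*, an ankyrin-repeat gene, because it was the 1 member window to contain the grainyhead motif AACCGGTT, found in 0.282% of tested genes. All are written 5′ to 3′ on the strand of the gene, with CACCTG or its reverse complement CAGGTG in capitals. The *Crb3* window is chr17:57061951-57062250 on the plus strand, and those of *Elf3* (chr1:135258423-135258722), *Edar* (chr10:58675647-58675946) and *Ankrd22* (chr19:34165992-34166291) are on the minus strand.
Crb3: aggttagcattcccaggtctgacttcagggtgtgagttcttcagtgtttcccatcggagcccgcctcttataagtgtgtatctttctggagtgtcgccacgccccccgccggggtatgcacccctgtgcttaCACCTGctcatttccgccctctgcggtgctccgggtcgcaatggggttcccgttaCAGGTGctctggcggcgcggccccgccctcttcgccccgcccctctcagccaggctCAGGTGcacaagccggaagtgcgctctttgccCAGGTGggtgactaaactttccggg
Elf3: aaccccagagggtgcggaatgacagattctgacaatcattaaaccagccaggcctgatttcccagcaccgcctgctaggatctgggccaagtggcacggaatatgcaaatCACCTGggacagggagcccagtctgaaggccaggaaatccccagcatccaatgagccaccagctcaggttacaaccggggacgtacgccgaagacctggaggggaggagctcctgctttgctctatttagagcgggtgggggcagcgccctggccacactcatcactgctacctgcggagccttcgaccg
Edar: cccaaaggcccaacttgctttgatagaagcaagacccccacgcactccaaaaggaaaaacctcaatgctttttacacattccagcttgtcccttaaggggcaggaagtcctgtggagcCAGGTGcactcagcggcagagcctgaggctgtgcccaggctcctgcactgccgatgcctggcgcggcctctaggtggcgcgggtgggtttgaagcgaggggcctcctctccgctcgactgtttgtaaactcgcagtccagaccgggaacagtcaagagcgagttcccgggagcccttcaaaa
Ankrd22: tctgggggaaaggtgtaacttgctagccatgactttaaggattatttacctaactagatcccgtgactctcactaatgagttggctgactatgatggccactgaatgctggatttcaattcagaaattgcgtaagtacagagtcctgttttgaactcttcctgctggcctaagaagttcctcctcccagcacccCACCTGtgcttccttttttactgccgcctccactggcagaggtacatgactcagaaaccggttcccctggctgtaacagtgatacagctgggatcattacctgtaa

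In the *Crb3* window the 4 copies began at -118, -63, -7 and 26 relative to the annotated start. In *Elf3* the single copy began at -140, in *Edar* at -132 and in *Ankrd22* at -56. *Ankrd22* also had TGANTCA at -10 and AACCGGTT at -1. On either strand, TTCCNGGAA (Stat) occurred in 1.57% of members and 1.52% of tested genes, and GGANTTTCC (NF-κB) in 3.15% and 1.69%. The palindromes TTGCGCAA (C/EBP) and GTCTAGAC (Smad) occurred in 0 member windows, against 0.35% and 0.311% of tested genes. TATAAA, read on the gene strand, occurred in 8.66% of members and 5.81% of tested genes. Among the factors that bind CACCTG, *Zeb1* was at 3.52 and 6.16 ppm in E, 49.9 and 44.3 in M and 43.3 and 42.8 in RE. *Zeb2* was at 10.9 and 17.9 ppm in E, 135 and 122 in M and 81.4 and 74.6 in RE. *Snai1* was at 7.85 and 5.15 ppm in E, 24.2 and 21.4 in M and 18.3 and 19.5 in RE, and *Snai2* at 4.18 and 12.2, 11.1 and 11.5, and 14.3 and 14.9. *Zeb1*, *Zeb2* and *Snai1* were above both E values in all M and RE libraries, whereas the M values of *Snai2* lay between its E values. The part of these factors in the members' levels was not tested.

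Of the tight junction and polarity genes, *Crb3* and *Marveld3* were members, 2 of 32 tested. *Crb3* encodes a Crumbs protein of the apical polarity complex. It was at 17.2 and 14.99 ppm in E, 0.52 and 0.337 in M and 2.80 and 2.57 in RE. Both RE libraries were thus above M but far below E, and *Crb3* was called lower in RE by -2.54 on the log2 scale (standard error 0.24, adjusted p = 0.000857 by limma). *Marveld3*, a tight junction protein related to occludin, was at 19.0 and 21.4 ppm in E, 1.37 and 1.95 in M and 9.41 and 9.97 in RE. Its RE values lay below E without overlap, and its log2 fold change was -1.05, but it was not called because its adjusted p of 0.0106 by limma was above 0.01. On the whole list, 8 genes were called lower and 3 higher in RE than in E, with a median log2 fold change of -0.60.

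*Ppl* encodes periplakin, which links desmosomes to keratin filaments, and was the 1 member among 20 tested genes of the adherens junction and desmosome. It was at 170 and 205 ppm in E, 6.22 and 9.15 in M and 136 and 131 in RE. The log2 fold change of *Ppl* between E and RE was -0.48 and was not called (adjusted p = 0.108 by limma). On its list 1 gene was called higher and 2 lower in RE. *Myh14*, the heavy chain of nonmuscle myosin IIC, was at 755 and 1088 ppm in E, 34.7 and 51.7 in M and 246 and 233 in RE. It was called lower in RE by -1.92 (standard error 0.24, adjusted p = 0.00188 by limma). *Eps8*, an actin-capping and bundling protein, was at 191 and 231 ppm in E, 47.1 and 40.5 in M and 221 and 219 in RE. In *Eps8* the RE values fell between those of the E libraries. *Palmd* encodes palmdelphin and was at 193 and 183 ppm in E, 23.1 and 30.2 in M and 349 and 338 in RE. Its adjusted p of 0.00691 by limma passed the limit, but its log2 fold change of 0.87 was below 1. *Plekhg6*, a guanine nucleotide exchange factor, was at 64.5 and 57.8 ppm in E, 3.71 and 4.70 in M and 79.6 and 72.8 in RE. None of the 17 keratins tested was a member.

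**Figure D2:**
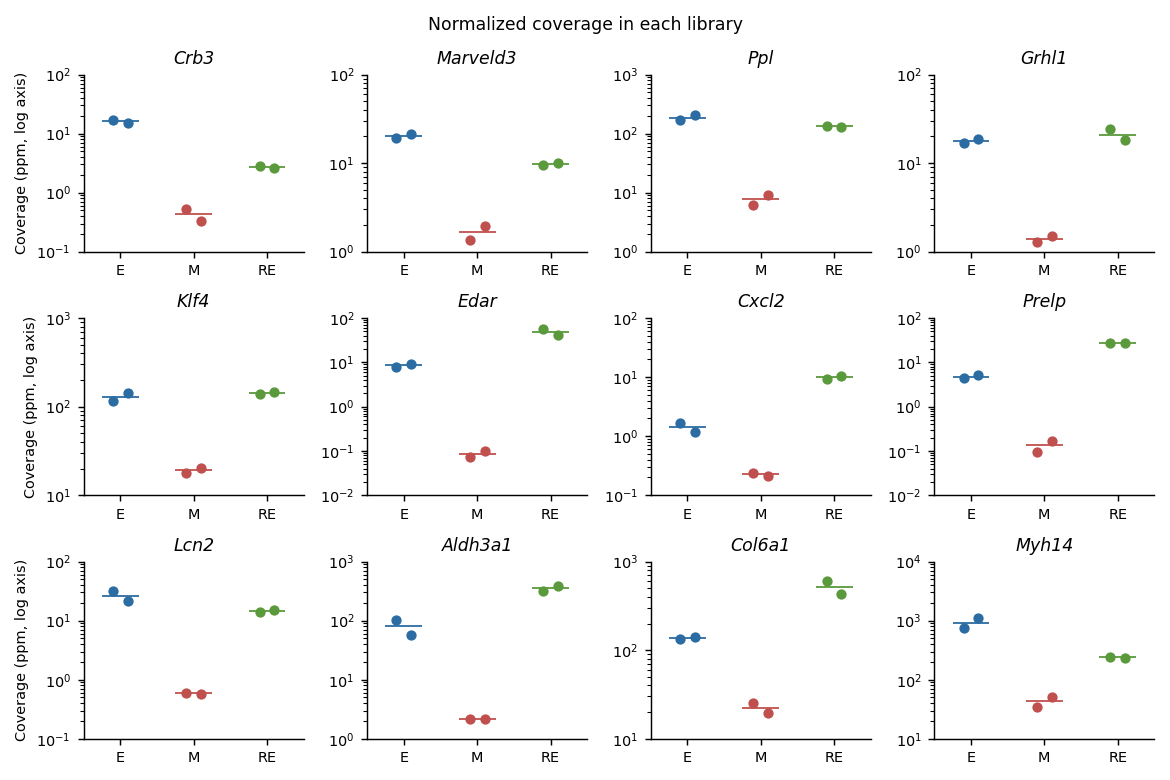
Normalized coverage in ppm (log axis, scaled separately in each panel) of 12 members in the 2 libraries of each stage, with points for libraries and lines for group means. The M values are lowest in every panel. *Crb3* and *Myh14* stay below E in RE, *Grhl1*, *Klf4* and *Ppl* come near E, and *Edar*, *Cxcl2*, *Prelp*, *Aldh3a1* and *Col6a1* lie above it.

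Acute phase and mucosal defence genes made up 6 members of 31 tested, *Lcn2*, *Hp*, *Lbp*, *Muc20*, *Ly6a* and *Ly6d*. *Hp* encodes haptoglobin, which captures free haemoglobin, and had the highest ratio of E to M among the members. It was at 163 and 54.5 ppm in E, 0.0668 and 0.202 in M and 152 and 107 in RE. The E libraries of *Hp* differed almost 3-fold and both RE values lay between them. *Lcn2*, a lipocalin that binds bacterial siderophores, was at 31.3 and 21.3 ppm in E, 0.599 and 0.578 in M and 13.9 and 15.2 in RE. *Lbp*, which binds lipopolysaccharide, was at 65.2 and 36.5 ppm in E, 2.03 and 2.68 in M and 116 and 101 in RE. *Lcn2* lay below E and *Lbp* above E without overlap, but neither was called (log2 fold change -0.83, adjusted p = 0.0291 and 1.15, adjusted p = 0.0211 by limma). *Ly6a*, the surface antigen Sca-1, was at 89.1 and 69.6 ppm in E, 2.56 and 2.43 in M and 23.9 and 19.8 in RE. It was called lower in RE by -1.85 (adjusted p = 0.000895 by limma). *Ly6a* and the member *Ly6c1* are close relatives, and how the authors' summing divided reads between them is unknown. On the list, 6 genes were called higher and 3 lower in RE than in E, with a median log2 fold change of 0.45.

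*C1rl*, a relative of the complement protease C1r, was called higher in RE than in E by 1.06 (adjusted p = 0.00997 by limma), a call kept in 3 of 15 alternative fits.

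Cytokines, chemokines and their receptors gave 5 members of 67 tested. *Cxcl2*, *Cxcl3* and *Cxcl5* encode related chemokines that attract neutrophils. *Cxcl2* was at 1.67 and 1.17 ppm in E, 0.242 and 0.211 in M and 9.42 and 10.4 in RE, and had the largest positive E vs. RE log2 fold change of the members, 2.74 (standard error 0.26, adjusted p = 0.00081 by limma). *Cxcl3* was at 9.22 and 5.88 ppm in E, 0.698 and 0.596 in M and 3.97 and 5.73 in RE. *Cxcl5* was at 93.6 and 42.7 ppm in E, 8.66 and 7.30 in M and 62.3 and 87.6 in RE. The RE values of *Cxcl2* were thus above E, those of *Cxcl3* below E and those of *Cxcl5* between the E libraries. Since these are similar genes, shared reads could affect their values. *Il22ra1*, a subunit of the interleukin-22 receptor, was at 4.80 and 6.28 ppm in E, 0.22 and 0.343 in M and 2.10 and 2.48 in RE, and *Il16*, a cytokine precursor, was at 1.30 and 1.44, 0.19 and 0.20, and 3.54 and 1.63, respectively. On the list 12 genes were called higher and 7 lower in RE than in E, with a median log2 fold change of 0.19.

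Ligands, receptors and secreted inhibitors of other pathways were also among the members. *Edar*, the ectodysplasin receptor of the TNF receptor family, was at 7.99 and 9.19 ppm in E, 0.073 and 0.0991 in M and 55.3 and 42.0 in RE. It was called higher in RE by 2.48 (standard error 0.22, adjusted p = 0.000686 by limma), and its mean was 99.8-fold higher in E and 565-fold higher in RE than in M. *Tnfsf12*, the ligand TWEAK, was at 13.6 and 7.81 ppm in E, 1.29 and 0.681 in M and 16.4 and 12.5 in RE. *Edar* and *Tnfsf12* were the 2 members of 26 tested genes of that superfamily, of which 2 were called higher and 2 lower in RE. *Gas6*, the ligand of the Tyro3, Axl and Mertk receptors, was at 387 and 260 ppm in E, 43.9 and 43.0 in M and 874 and 716 in RE, and was called higher in RE by 1.32 (adjusted p = 0.00427 by limma). *Kitl*, the ligand of the Kit receptor, was not called (1.04, adjusted p = 0.0119 by limma). *Notch3* was the 1 member of 12 tested genes of the Notch pathway, at 28.5 and 51.7 ppm in E, 2.74 and 3.02 in M and 27.0 and 24.7 in RE. On the Notch list 1 gene was called higher and 1 lower in RE.

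Within the TGFβ and BMP pathway, 3 of 47 tested genes were members. *Bmp4*, a BMP ligand, was at 46.4 and 40.7 ppm in E, 1.74 and 1.27 in M and 46.8 and 40.9 in RE. *Fst* encodes follistatin, which binds activins, and was at 30.2 and 21.7 ppm in E, 0.501 and 0.718 in M and 25.3 and 23.8 in RE. *Chrd* encodes chordin, which binds BMPs, and was at 2.90 and 3.83 ppm in E, 0.714 and 0.462 in M and 4.46 and 4.05 in RE. The E and RE ranges of *Bmp4* and *Fst* overlapped, those of *Chrd* did not, and none of *Bmp4*, *Fst* and *Chrd* was called between E and RE. Over the list 8 genes were called higher and 2 lower in RE, with a median log2 fold change of 0.43.

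*Stc2*, a secreted glycoprotein hormone, was at 109 and 159 ppm in E, 1.55 and 1.47 in M and 29.0 and 22.3 in RE, and was called lower in RE by -2.36 (adjusted p = 0.000807 by limma). *Ngef*, a guanine nucleotide exchange factor, was at 32.9 and 31.4 ppm in E, 0.477 and 0.342 in M and 7.45 and 5.61 in RE, and was lower in RE by -2.29 (adjusted p = 0.000929 by limma). Both genes kept RE coverage well above M and well below E. *Rassf4*, a Ras-association domain gene, went the other way, with 8.27 and 11.1 ppm in E, 0 and 0.0488 in M and 51.1 and 44.8 in RE (called, adjusted p = 0.00152 by limma). *Zfp36*, which promotes decay of AU-rich mRNAs, was called higher by 1.65 and *Hlf*, a PAR bZip transcription factor, by 1.77 (adjusted p = 0.00131 and 0.00171 by limma). *Rgs2*, an inhibitor of G-protein signalling, was called lower by -1.41 (adjusted p = 0.00446 by limma).

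Several other members encode matrix proteins or proteases. No matrix list was tested, and those named here were chosen after their values were seen, except where the size of their difference named them. *Col6a1*, a chain of collagen VI, was at 134 and 141 ppm in E, 25.1 and 19.4 in M and 597 and 435 in RE, and was called higher in RE by 1.89 (standard error 0.19, adjusted p = 0.00104 by limma). *Col6a2*, a partner chain and its neighbour in the genome, was at 17.3 and 13.9 ppm in E, 2.77 and 1.19 in M and 44.3 and 26.9 in RE, above E without overlap but not called (adjusted p = 0.0637 by limma). *Prelp*, a leucine-rich matrix proteoglycan, was at 4.39 and 5.07 ppm in E, 0.0954 and 0.171 in M and 26.9 and 27.4 in RE, and was called higher by 2.498 (adjusted p = 0.000807 by limma). For *Col6a1* and *Prelp* every RE value was above both E values, and *Mgp*, matrix Gla protein, was called higher as well (log2 fold change 1.96, adjusted p = 0.0036 by limma). *Fbln1*, a fibulin of the matrix, was at 4.77 and 3.06 ppm in E, 0 and 0.171 in M and 9.86 and 9.62 in RE, and neither *Fbln1* nor the secreted *Fibin* was called (adjusted p = 0.067 and 0.352 by limma). *Mme* encodes the membrane peptidase neprilysin and was at 21.8 and 17.8 ppm in E, 1.12 and 0.61 in M and 126 and 92.5 in RE (log2 fold change 2.45, adjusted p = 0.00157 by limma). *Pappa2*, a protease that cleaves IGF-binding proteins, was at 7.06 and 17.9 ppm in E, 0.738 and 0.614 in M and 67.4 and 50.7 in RE (log2 fold change 2.37, adjusted p = 0.0059 by limma). Its E libraries differed more than 2-fold, and both were below the RE libraries.

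The list of proteases and inhibitors gave 4 members of 114 tested. *Mmp15*, a membrane-type matrix metalloproteinase, was at 8.63 and 6.19 ppm in E, 0.882 and 0.734 in M and 21.2 and 19.4 in RE and was called higher in RE. *Tmprss4*, a membrane serine protease, was at 10.5 and 2.81 ppm in E and at 11.3 and 7.12 in RE, with no M coverage. *Spink5*, an inhibitor of epidermal serine proteases, was at 2.92 and 2.60 ppm in E, 0.119 and 0.147 in M and 2.03 and 1.75 in RE, and *Serpina9*, a serpin, was at 9.85 and 3.81, 0.0716 and 0.147, and 3.82 and 3.17. *Tmprss4*, *Spink5* and *Serpina9* were not called between E and RE. Of the 114 genes, 14 were called higher and 10 lower in RE.

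Transport was covered by 9 members of 140 tested ion channels, pumps and aquaporins and by 4 of 226 tested solute carriers. *Scnn1a*, the alpha subunit of the epithelial sodium channel, was at 19.1 and 23.1 ppm in E, 2.59 and 3.50 in M and 19.7 and 21.5 in RE. *Atp8b1*, a phospholipid flippase, was at 23.2 and 31.4 ppm in E, 1.84 and 2.27 in M and 18.8 and 17.9 in RE. *Trpv3*, a cation channel of keratinocytes, was at 17.7 and 43.2 ppm in E, 1.98 and 2.26 in M and 23.5 and 18.5 in RE. The E and RE ranges of *Scnn1a* and *Trpv3* overlapped, and *Atp8b1* was lower in both RE libraries without being called. *Atp13a5*, a P5-type ATPase, was at 9.98 and 5.21 ppm in E, 0 in both M libraries and 39.3 and 26.2 in RE, and was called higher in RE by 2.14 (adjusted p = 0.00504 by limma). Its genomic neighbour *Atp13a4* was at 6.15 and 5.29 ppm in E, 0.329 and 0.626 in M and 4.63 and 4.32 in RE and was not called. Over the channels and pumps, 18 genes were called higher and 4 lower in RE than in E, *Kcnj2*, an inward-rectifier potassium channel, being the other called member.

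*Slc6a2*, the noradrenaline transporter, was at 9.38 and 8.39 ppm in E, 0.258 and 0.148 in M and 36.7 and 23.2 in RE, and was called higher in RE by 1.71 (adjusted p = 0.00583 by limma). *Slc6a14*, an amino acid transporter, was at 9.91 and 9.47 ppm in E, 0.0711 and 0.122 in M and 10.5 and 7.63 in RE. *Slc44a3*, of the choline transporter-like family, was at 26.9 and 22.4 ppm in E, 3.91 and 4.64 in M and 28.6 and 24.9 in RE. In *Slc6a14* and *Slc44a3* the E and RE ranges overlapped, and *Slc25a35*, a mitochondrial carrier, was at 14.1 and 17.0, 2.68 and 2.52, and 11.5 and 12.5. On the solute carrier list 21 genes were called higher and 7 lower in RE.

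Detoxifying and steroid- or lipid-metabolizing enzymes gave 7 members of 96 tested, with calls in both directions. *Aldh3a1*, an aldehyde dehydrogenase, was at 104 and 57.4 ppm in E, 2.13 and 2.15 in M and 317 and 386 in RE, and was called higher in RE by 2.18 (standard error 0.26, adjusted p = 0.0018 by limma). *Ugt1a10*, a glucuronosyltransferase, was at 14.4 and 11.9 ppm in E, 1.27 and 1.14 in M and 40.4 and 39.0 in RE and was called higher by 1.59 (adjusted p = 0.00131 by limma). Members of the Ugt1a locus share exons, so the coverage given to *Ugt1a10* could include that of others. *Cyp2f2*, a cytochrome P450, was at 21.2 and 13.7 ppm in E, 0 in both M libraries and 2.99 and 1.64 in RE. It had the most negative E vs. RE log2 fold change of the members, -2.88 (standard error 0.35, adjusted p = 0.00182 by limma), although RE was 31.6-fold above the floor that stands for M. *Sult2b1*, a cholesterol sulfotransferase, was at 27.8 and 22.6 ppm in E, 0.406 and 0.43 in M and 11.3 and 8.70 in RE and was called lower by -1.33 (adjusted p = 0.00488 by limma).

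*Akr1c14* and *Akr1c18* are neighbouring aldo-keto reductases of steroid metabolism that could share reads. *Akr1c18* was at 4.29 and 3.13 ppm in E, 0 in both M libraries and 3.97 and 3.13 in RE, whereas *Akr1c14* was called higher in RE by 1.93 (adjusted p = 0.00127 by limma). *Fmo1*, a flavin monooxygenase, was at 8.003 and 4.46 ppm in E, 0.0239 and 0 in M and 8.64 and 6.74 in RE. On the detoxification list 10 genes were called higher and 6 lower in RE, with a median log2 fold change of 0.03. *Ivd*, which acts in leucine breakdown, *Fbp2*, a fructose bisphosphatase, and *Lpl*, lipoprotein lipase, were called lower (log2 fold changes -1.30, -1.69 and -1.14, adjusted p = 0.00261, 0.00423 and 0.00713 by limma). *Enpp2*, which encodes autotaxin and makes lysophosphatidic acid, was at 81.6 and 61.2 ppm in E, 5.92 and 7.58 in M and 144 and 91.4 in RE, and *Uap1l1*, a relative of the enzyme that makes UDP-N-acetylglucosamine, was at 142 and 104, 13.1 and 13.5, and 86.8 and 77.5. *Enpp2* and *Uap1l1* were not called.

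Glycosylation genes gave 2 members of 57 tested. *Mgat3* adds bisecting N-acetylglucosamine to N-glycans and was at 100.1 and 76.8 ppm in E, 2.74 and 1.61 in M and 48.1 and 41.3 in RE. *Galntl2* (*Galnt15*) starts mucin-type O-glycans and was at 7.64 and 7.01 ppm in E, 0.763 and 1.09 in M and 29.0 and 28.1 in RE. *Galntl2* was called higher in RE by 1.95 (adjusted p = 0.00121 by limma), and *Mgat3*, below E in both RE libraries, was not called (-0.98, adjusted p = 0.0286 by limma). On this list 3 genes were called higher and 7 lower in RE. No member was found among the tested genes of the EGF family (12), the Wnt pathway (33), mammary lineage and lactation (12) or the interferon-stimulated group (42).

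E and RE are the one pair of stages between which the rule set no direction. In this comparison 30 members (16.2%) were called higher in RE, against 5.92% of all 13893 genes tested, and 14 members (7.57%) were called lower, against 3.16% of all genes tested. The remaining 141 were not called, and 67 of them had a log2 fold change within 0.5 of 0. At an unadjusted p below 0.05 by limma, 60 members (32.4%) were higher and 40 (21.6%) lower, against 23.1% and 20.5% of all genes tested. With the adjusted p limit set at 0.05 and the same fold limit, 44 members (23.8%) were called higher and 21 (11.4%) lower, against 8.56% and 4.92% of all genes tested. The median log2 fold change of the members was 0.08 with quartiles of -0.53 and 1.04, against quartiles of -0.40 and 0.46 for all genes tested, and the median absolute log2 fold change was 0.74 against 0.43. By the called shares and the quartiles, members were thus spread more widely around E in both directions. On the lower side, the share at an unadjusted p below 0.05 by limma was near that of all genes tested. All genes tested also include genes below 1 ppm in some E or RE library, which could not be members. Both RE libraries were above both E libraries in 72 members (38.9%) and below in 62 (33.5%), against 34.9% and 33.7% of the 11276 genes with at least 1 ppm in every E and RE library. The called members not described above by their own values were *Kcnj2*, *Itih2*, *Gdpd2*, *Aff3*, *Chdh*, *Anpep*, *Lmo7*, *Dhrs3* and the clone-named AC170869.2 on the higher side, with log2 fold changes from 1.10 for AC170869.2 to 2.04 for *Kcnj2*, and *Tmem125* on the lower side, at -1.61 (adjusted p = 0.00818 by limma).

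**Figure D3:**
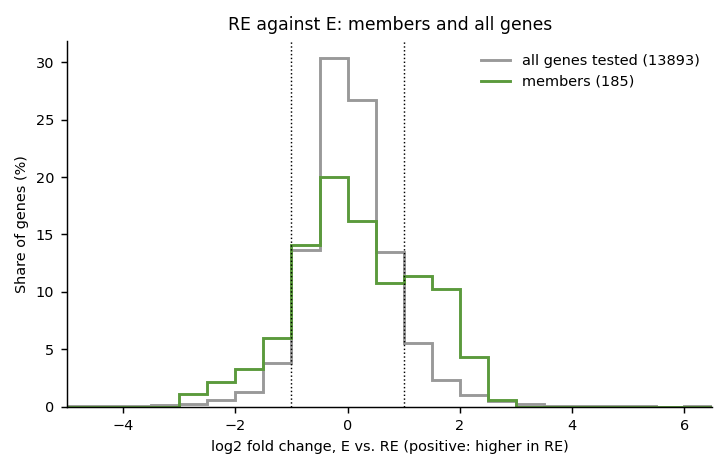
Share of genes (%) by log2 fold change in E vs. RE (positive where RE was higher) for the 185 members and the 13893 genes tested, with dotted lines at -1 and 1. The members have a larger share beyond both dotted lines, with a median of 0.08.

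The call of single members rested on having both RE libraries. All 44 called members kept their sign when any library was left out, but without RE replicate 1 or RE replicate 2 0 passed, a lone RE library then being assumed to vary like the other groups. Of all genes tested, 9 and 52 were then called, and the smallest adjusted p of a member by limma was 0.0153 and 0.0108. At an unadjusted p below 0.05 by limma, 41 members were higher and 33 lower without RE replicate 1, where 14.3% and 11.2% of all genes passed, and 57 and 26 without RE replicate 2, where 16.7% and 14.2% passed. Without E replicate 1, 51 members were called higher and 22 lower, with 7.31% and 4.80% of all genes called, and without E replicate 2, 34 and 24, with 11.5% and 5.32% of all genes called. Without M replicate 1 or M replicate 2, 19 were called higher and 10 lower, with 3.08% and 1.39%, or 3.07% and 1.41%, of all genes called. The counts of members and of all genes thus both moved with the library left out. Apart from the 2 settings without an RE library, 24 members (15 higher and 9 lower) were called in every one of the 13 other fits in which they passed the filter, among them *Cxcl2*, *Edar*, *Prelp*, *Mme*, *Col6a1* and *Aldh3a1* on the higher side and *Cyp2f2*, *Crb3*, *Stc2*, *Ngef*, *Myh14* and *Ly6a* on the lower side. The other 20 lost the call in at least 1 of those fits. They were *Gas6*, *Pappa2*, *Rassf4*, *Atp13a5*, *Mgp*, *Mmp15*, *Slc6a2*, *Kcnj2*, *Itih2*, *Aff3*, *Chdh*, *Anpep*, *C1rl*, *Hid1* and AC170869.2 on the higher side and *Sult2b1*, *Lpl*, *Fbp2*, *Tmem125* and *Misp3* on the lower side.

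**Figure D4:**
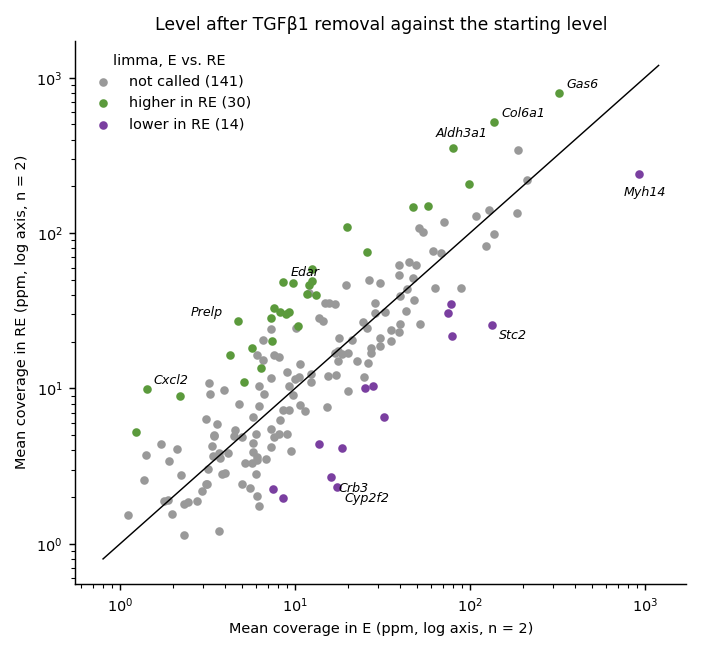
Mean normalized coverage of each of the 185 members in RE against E (ppm, log axes), with the line of equality and called members in colour. The 30 members called higher and the 14 called lower lie on either side of the line, with the 141 not called around it.

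Some members were neighbours in the genome. In the gene order of GRCm38.p6, 181 members could be placed by symbol, 166 under their current and 15 under an older name, and 180 were protein coding. There were 8 pairs of members with no other gene of the table between them. Besides *Col6a1* and *Col6a2*, *Akr1c14* and *Akr1c18*, *Ly6a* and *Ly6c1*, and *Atp13a4* and *Atp13a5*, these included *Trpv3* and *Aspa*, *Rassf4* and 8430408G22Rik, and 2210011C24Rik (*Misp3*) and 4432412L15Rik (*Palm3*). *Misp3* was at 10.3 and 6.75 ppm in E, 0.153 and 0.109 in M and 1.30 and 2.66 in RE, and *Palm3*, a paralemmin family gene, was at 19.3 and 18.0, 0.632 and 0.733, and 3.89 and 4.36. Both *Misp3* and *Palm3* were called lower in RE (-2.10 and -2.15, adjusted p = 0.00742 and 0.000707 by limma). The call of *Misp3* was lost in 8 of 14 alternative fits, among them those with no filter, with only E and RE and with array weights. Where neighbours overlap, coverage could have been counted for both.

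Replicates of a stage did not vary evenly over the members. The first E library was above the second in 127 of 185 members (median log2 ratio 0.28, against 0.03 for the 11276 genes with at least 1 ppm in every E and RE library), and the first RE library was above the second in 144 (median 0.22, against 0.02). Among those 11276 genes, the first library was above the second in 5925 for E and in 6094 for RE. Both held for 101 members, a count that was not compared with all genes. In M the first library was above the second in 79, while 8 members were at 0 in both. The replicates of 17 members (9.19%) differed more than 2-fold in E, of 13 (7.03%) in M and of 2 (1.08%) in RE, against 7.67%, 2.03% and 1.61% of all genes tested. The SD of the log2 difference between replicates was 0.557 in E, 0.538 in M and 0.321 in RE for the members, whose M coverage is low by the rule, and 0.558, 0.318 and 0.309 for all genes tested. *Hp* and *Tmprss4* were among those in E, and the part of these library differences in the E vs. RE values was not tested.

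The rest of the most abundant members were C630004H02Rik (*Hid1*), at 103 and 95.5 ppm in E, 6.11 and 4.18 in M and 222 and 189 in RE, and AC124552.3, at 133 and 141, 21.3 and 20.7, and 108 and 90.2. *Hid1*, which acts in secretory granule formation, was called higher in RE by 1.05 (adjusted p = 0.00824 by limma), a call kept in 6 of 15 alternative fits and lost, for example, with library totals, no filter, only E and RE or array weights. AC124552.3, matched to no RefSeq gene, was not called. Of the 8 members without M coverage, *Inmt*, an N-methyltransferase, was at 7.94 and 8.18 ppm in E and 6.54 and 3.70 in RE, and *Sntg2*, a syntrophin, was at 4.84 and 4.14 and at 5.83 and 4.12. *Trex2*, a DNA exonuclease of keratinocytes, was at 4.70 and 2.99 ppm in E and 3.22 and 2.42 in RE, and 8430408G22Rik (*Depp1*) was at 6.85 and 2.23 and at 5.52 and 5.34. For these 4 genes E and RE ranges overlapped except in *Inmt*, and a coverage of 0 in M allows a level of up to 3 reads' worth per library. The single adipocyte marker among the members was *Fabp4*, at 8.98 and 3.13 ppm in E, 0.0558 and 0.0244 in M and 2.20 and 1.87 in RE, while *Adipoq* did not exceed 0.049 ppm in any library.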

How the data were processed

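The authors mapped unique reads to the mouse genome (NCBI-m37, with Bowtie and TopHat2) and deposited 1 table of 17428 genes in 6 libraries. How reads were summed per gene is not given in the sources used here. Per the file's values, the deposited numbers are coverage (a signal of sequenced bases per gene), since 44.8% to 48.4% of values from 1 to 400 were multiples of 50. The edgeR test of the methods needs counts and was not run.

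Members were selected on ppm of the library total. For all other values, TMM factors (0.875 to 1.12, no weights, trims of 30% and 5%) were applied. The 13893 genes that reached 500 bases in 2 or more libraries were fitted with limma 3.58.1 in R 4.3.3 on log2(ppm + 0.1), with all 6 libraries, group only and a trend, and Benjamini-Hochberg adjustment over all genes tested. A gene was called where its absolute log2 fold change exceeded 1 with an adjusted p below 0.01. The fold change understates that of genes with low coverage. Simulated data with known changes were put through the same fit only as a check of its code. Their spreads were assigned to genes at random, so they do not give the accuracy of the calls here. With 2 libraries per group, precision is limited by their number, and depth also limits the M levels of the 22 members at the floor.

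The members, the 19 gene lists and the tests were chosen with earlier results of these data known. Values in every library are given for the 12 members with the highest lowest E or RE value, the 8 with the largest called difference between E and RE in each direction, the 8 with the lowest M values relative to E and RE, the genes at the threshold, and up to 4 members of each list. A few others are named by role, and some items that this covers are not reported here. Promoters are from RefSeq (GRCm38.p6), matched by symbol. Alternatives were other scalings, filters, pseudocounts, thresholds, samples in the fit, array weights, a replicate block, other limits in the rule and leaving out each library.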

Additional observations from a re-analysis of the deposited data

How the results depend on the processing

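The number of members (185) was 328 with a limit of 1 part in 3, 82 with 1 part in 10, 117 with a minimum of 5 ppm and 287 with the libraries of replicate number 1 only. It was 151 after TMM, 154 with median-of-ratios size factors, 206 with a minimum of 0.5 ppm and 223 with the libraries of replicate number 2, and leaving out 1 library gave 191 to 225. Members called higher in RE fell from 30 to 18 with 500 bases required in every library, which removes members low in M from the fit. Leaving out 1 library gave 0 to 51 called higher and 0 to 24 called lower, the 0 being without either RE library, where 9 and 52 of all genes were called. Scaling by library totals gave 25 higher and 16 lower (61% higher, against 68.2%), no filter 20 and 10, a fit of only E and RE 23 and 11 and array weights 23 and 10. The median log2 fold change of the members, 0.079, lay between -0.013 (without E replicate 2) and 0.178 (without E replicate 1), and was -0.001 with library totals and -0.009 with the filter in every library, so that its sign was not stable. Of the single genes, *Klf4* (log2 fold change 0.136) ranged from -0.026 without E replicate 1 to 0.298 without E replicate 2, and *Eps8* (0.063) from -0.073 to 0.2, with -0.021 under library totals. The cause was not tested. Whether same-numbered libraries were prepared together is not given in the sources used here. Correlations of same-numbered deviations were 0.266 (E and M), 0.058 (E and RE) and 0.116 (M and RE). A replicate block gave 30 members called higher and 13 lower, with a median of 0.079. Depth limits the M levels of the 22 members at the floor, for which folds are lower bounds.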

Other observations

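Among the 135 members on none of the lists were several genes known from stratified epithelium. They were picked out after their values were seen and were not tested as a group. *Tgm1*, a transglutaminase that cross-links the cornified envelope, was at 10.1 and 7.86 ppm in E, 1.03 and 0.988 in M and 13.8 and 11.8 in RE. *Tgm5*, a related transglutaminase, was at 6.07 and 3.58 ppm in E, 0.0716 and 0.0488 in M and 10.4 and 5.38 in RE. *Slurp1*, a secreted protein of the Ly6 family, was at 2.69 and 1.53 ppm in E, 0.0477 and 0 in M and 4.53 and 3.64 in RE. *Zfp750* was at 16.1 and 12.8 ppm in E, 0.678 and 1.36 in M and 29.3 and 25.3 in RE. *Tgm1*, *Slurp1* and *Zfp750* lay higher in both RE libraries than in both E libraries, *Tgm5* overlapped, and none of these genes was called between E and RE (adjusted p = 0.0966, 0.0804, 0.0575 and 0.22 by limma). Other members described above did not share this direction. *Spink5* and *Ppl* lay below E in both RE libraries, the keratinocyte genes *Trpv3* and *Trex2* overlapped, and none of them was called.

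Of the prostaglandin synthases, *Ptgds* was at 8.40 and 4.12 ppm in E, 0.0239 and 0.0244 in M and 1.73 and 1.76 in RE, and *Ptgis* was at 2.34 and 1.44, 0.0954 and 0.0488, and 1.92 and 1.91. *Ptgds* lay below E in both RE libraries but was not called (adjusted p = 0.0128 by limma), whereas the E and RE ranges of *Ptgis* overlapped.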
